A study of Rattus norvegicus with 12 samples.

Results

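The effect of 100 µM empagliflozin on glucose-starved H9c2(2-1) cells was read from RNA-seq of 3 drug-treated and 3 untreated libraries out of 12. H9c2(2-1) is a rat myoblast line derived from embryonic heart; its genotype was given as WT, and all groups came from this single line. The 3 libraries of the treated group (100 µM) and the 3 of the deprived group (GD) had both gone 36 h without glucose, so the drug is the only labelled difference between them. The other libraries were 3 with 200 µM of the drug during the same deprivation, and 3 controls in high-glucose DMEM with 10% fetal bovine serum and no drug. All 35966 genes of the deposited table were considered, and the 12314 with at least 1 TPM (a level scaled to transcript length and to a common total per library) in at least 3 libraries were tested. No label gives the solvent of the drug, the serum of the deprived groups, or whether replicates were grown separately, so drug and solvent cannot be told apart and p-values may measure only technical spread.

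Empagliflozin blocks SGLT2, the sodium-glucose cotransporter by which the kidney reclaims glucose, and is used in diabetes and in heart failure. Cells without glucose engage several defence programs, among them the integrated stress response, NRF2 and TFEB. The integrated stress response changes translation and acts on genes through the transcription factors ATF4 and CHOP. NRF2 switches on antioxidant and detoxifying enzymes, and TFEB drives lysosome and autophagy genes. NF-kappaB is the transcription factor family behind most chemokine, cytokine and adhesion molecule genes of inflamed tissue.

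Ribosomal protein genes held 35.0% ± 1.66 of all TPM at 100 µM and 34.6% ± 1.70 in GD (SD, n = 3 each; two-sided exact permutation test, p = 0.8, where the smallest p that 3 against 3 allow is 0.1). Libraries of different groups correlated at 0.984 to 0.989 (log2 values, over genes, which share libraries and are no replicates), and those of the same group at 0.990 or more. GD replicate 3 stood lowest of the 6 in median TPM (6.84, against 7.64 to 8.96 in the others) and in genes at 1 TPM or more (10551, against 10875 to 11078), so lower genes are also given without it. The summed level of 9 fibroblast markers, of which 4 could be tested and Tcf21 was listed at 0, was 925, 1275 and 677 TPM in GD and 812, 1714 and 975 TPM at 100 µM, highest in 100 µM replicate 2. The labels call the cells myocardial. Of 22 cardiac markers 8 could be tested, and Tbx5, Tbx20, Myl3, Myl7, Ryr2 and Kcnj2 were listed at 0 in all 6 libraries. The summed level of the 22 was 150 to 197 TPM in GD and 137 to 159 TPM at 100 µM. Of 23 skeletal muscle markers 11 could be tested and 5 were listed at 0. Their summed level was 34.6 to 37.8 TPM in GD and 26.2 to 35.5 TPM at 100 µM. Of 9 leukocyte markers, 2 could be tested; the summed level of the 9 was 0.43 to 0.94 TPM in GD and 0.70 to 1.01 TPM at 100 µM. Of the skeletal, cardiac, fibroblast, endothelial and leukocyte markers tested, 1 skeletal and 1 cardiac gene were called, Des (desmin) and Hand2 (a heart and limb transcription factor), both lower. In bulk RNA, fewer cells of a type and less RNA per cell cannot be told apart.

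At 100 µM, chemokine, cytokine and other inflammation genes and many subunits of the mitochondrial respiratory chain were higher than in GD, while other genes, among them antioxidant, lysosome and heat shock genes, were lower. Of the 12314 genes, 925 rose (7.51%) and 672 fell (5.46%), together 13.0%, at an adjusted p under 0.05 (limma over all 12 libraries, Benjamini-Hochberg adjustment). Most changes were small: the median log2 fold change was 0.44 among genes that rose, -0.44 among those that fell and 0.02 over all tested genes, and 53 rose (0.430%) and 22 fell (0.179%) by 2-fold or more. In 1562 of the 1597 called genes the 3 libraries of one group lay wholly to one side of the other group; over all tested genes, called or not, this held for 1972 higher (16.0%) and 1311 lower (10.6%). Of the called genes 57.9% were higher, against 43.9% after median-of-ratios scaling, 47.4% after quantile normalization and 34.8% without GD replicate 3. The balance of higher and lower genes depended on scaling and on that library, without which 1615 genes were lower and 861 higher. In 510 of the 672 lower genes GD replicate 3 was the GD library nearest to the treated ones.

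**Figure D1:**
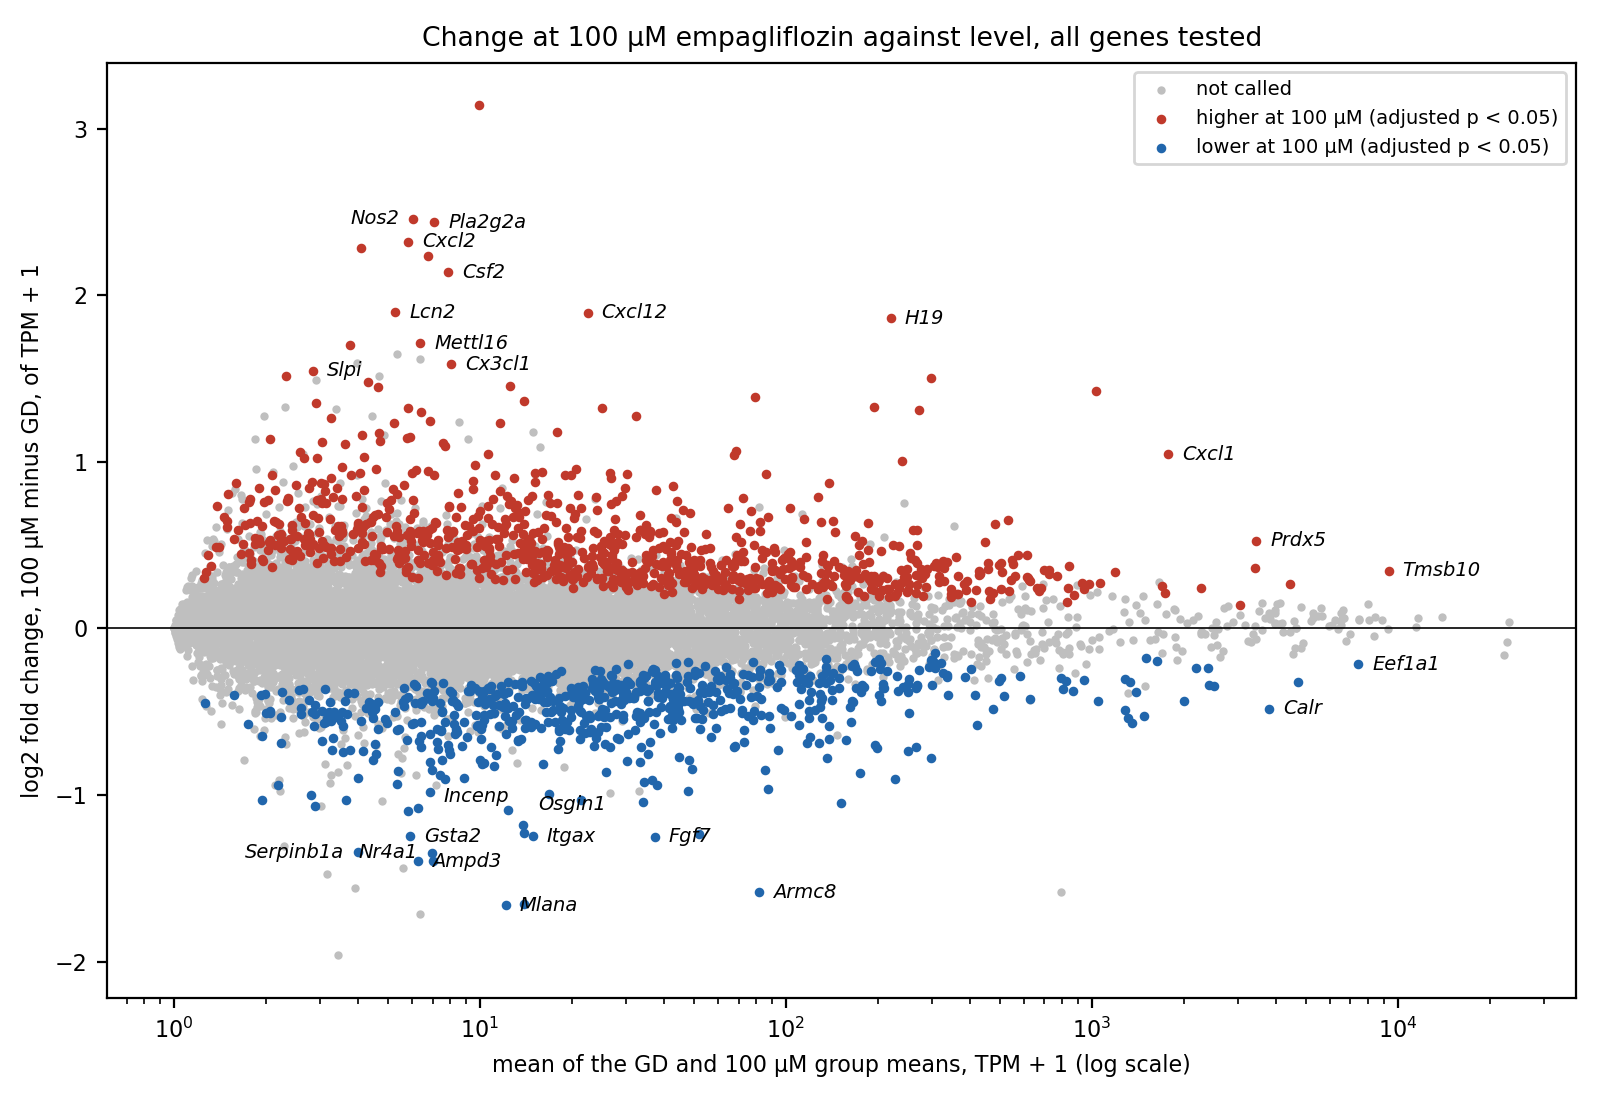
Log2 fold change of TPM + 1 at 100 µM against GD (vertical) by the mean level of both groups (horizontal, TPM + 1, log scale) for the 12314 tested genes; red and blue points passed the test as higher (925) and lower (672). The genes with the largest changes, such as Nos2 (2.46) and Mlana (-1.66), had low to moderate levels; unlabelled points include loci without an established symbol, among them the highest value, 3.14 for LOC106736471.

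The 4 highest fold changes among called genes with established symbols and groups that did not overlap were those of Nos2, Pla2g2a, Cxcl2 and Csf2; Nos2 and Cxcl2 belong to the inflammation and chemokine list. Nos2, which encodes the inducible nitric oxide synthase, had 0.92, 0.66 and 0.71 TPM in the GD libraries and 10.0, 4.84 and 13.1 TPM at 100 µM. Pla2g2a, a secreted phospholipase of acute inflammation, had 1.22, 0.91 and 0.73 TPM in GD and 8.65, 4.66 and 20.4 TPM at 100 µM. The groups did not overlap in either gene, and replicate 2 was the lowest treated library in both. The log2 fold changes of TPM + 1 were 2.46 for Nos2 (SE 0.27, adjusted p = 0.000181) and 2.44 for Pla2g2a (SE 0.35, adjusted p = 0.00109). Cxcl2, a chemokine gene that draws neutrophils, had 0.90, 0.90 and 0.81 TPM in GD and 10.3, 4.94 and 11.2 TPM at 100 µM (2.32, SE 0.22, adjusted p = 0.000128). Csf2, which encodes the growth factor GM-CSF, had 0.96, 1.62 and 3.32 TPM in GD and 12.1, 7.66 and 15.6 TPM at 100 µM (2.14, SE 0.27, adjusted p = 0.00053). Lcn2 (lipocalin 2, an iron-binding acute-phase protein) rose by 1.90, Slpi (a protease inhibitor of mucosal secretions) by 1.55 and Cx3cl1 (fractalkine) by 1.59. Slpi rested on few libraries, with 3.41, 0.52 and 6.36 TPM at 100 µM against 0.12, 0.36 and 0.30 TPM in GD, and its adjusted p went up to 0.0863 with 1 library left out.

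Of 28 tested genes of the inflammation and chemokine list, 17 were called higher and 0 lower (median log2 change 0.59, against 0.02 over all tested genes). The count was 17 also without 100 µM replicate 2 and without GD replicate 3, and 16 after median-of-ratios scaling. At higher levels, Ccl2, the chemokine that recruits monocytes, had 535, 459 and 666 TPM in GD and 1865, 1073 and 1591 TPM at 100 µM (1.43, SE 0.20, adjusted p = 0.000777). Its neighbour in function Ccl7 had 132, 150 and 180 TPM in GD and 509, 352 and 458 TPM at 100 µM (1.50, SE 0.15, adjusted p = 0.000128). Neither gene's groups overlapped. Cxcl1, a neutrophil chemokine, had 979, 963 and 1469 TPM in GD and 3098, 1493 and 2632 TPM at 100 µM (1.04, SE 0.26, adjusted p = 0.0178), so that its lowest treated library lay just above its highest GD library. The adhesion molecule gene Vcam1 had 8.74, 5.62 and 5.61 TPM in GD and 22.6, 11.9 and 23.0 TPM at 100 µM (1.37, SE 0.25, adjusted p = 0.00373). Beside Nos2, Cxcl2, Lcn2 and Cx3cl1, the other called members were the chemokine genes Cxcl12 (1.90) and Ccl20 (0.83), the cytokine genes Il6 (0.77), Lif (0.96) and Tnf (0.67), Ptgs2 (cyclooxygenase 2, 0.97), Tnfaip2 (0.49), Icam1 (0.50) and Nfkb1 (0.47), the gene of an NF-kappaB subunit. Tnf was near the floor, with means of 0.11 TPM in GD and 0.80 TPM at 100 µM, beside 4.97 TPM at 200 µM. Ccl20 was low too, with means of 0.51 TPM in GD and 1.78 TPM at 100 µM. Cxcl1 and Cxcl2, and Ccl2 and Ccl7, are paralogs, and how reads that match both were divided is not given in the sources used here.

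In all 17 called genes replicate 2 was the treated library nearest to GD; it was also the library with the highest summed fibroblast markers, and the part of that difference in these values was not tested. Icam1, a leukocyte adhesion molecule, overlapped between the groups at that library, with 130, 142 and 150 TPM in GD and 239, 149 and 223 TPM at 100 µM (adjusted p = 0.0441). Cxcl1, Ccl20, Icam1 and Tnf missed the threshold when GD replicate 1 or 2 or 100 µM replicate 1 or 3 was left out, with adjusted p up to 0.161 for Icam1 and 0.0734 for Cxcl1. The 11 members that were not called included negative regulators of NF-kappaB and its other subunits: Nfkbia (which encodes the inhibitor IκBα) had 68.6, 87.9 and 106 TPM in GD and 116, 74.0 and 83.3 TPM at 100 µM (0.05, adjusted p = 0.891). Cxcl10, an interferon-induced chemokine gene, had 8.21, 7.50 and 8.82 TPM in GD and 14.7, 6.76 and 12.5 TPM at 100 µM (0.36, adjusted p = 0.453). The number of libraries limits what such values can show, and a p above the threshold does not make the groups equal.

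**Figure D2:**
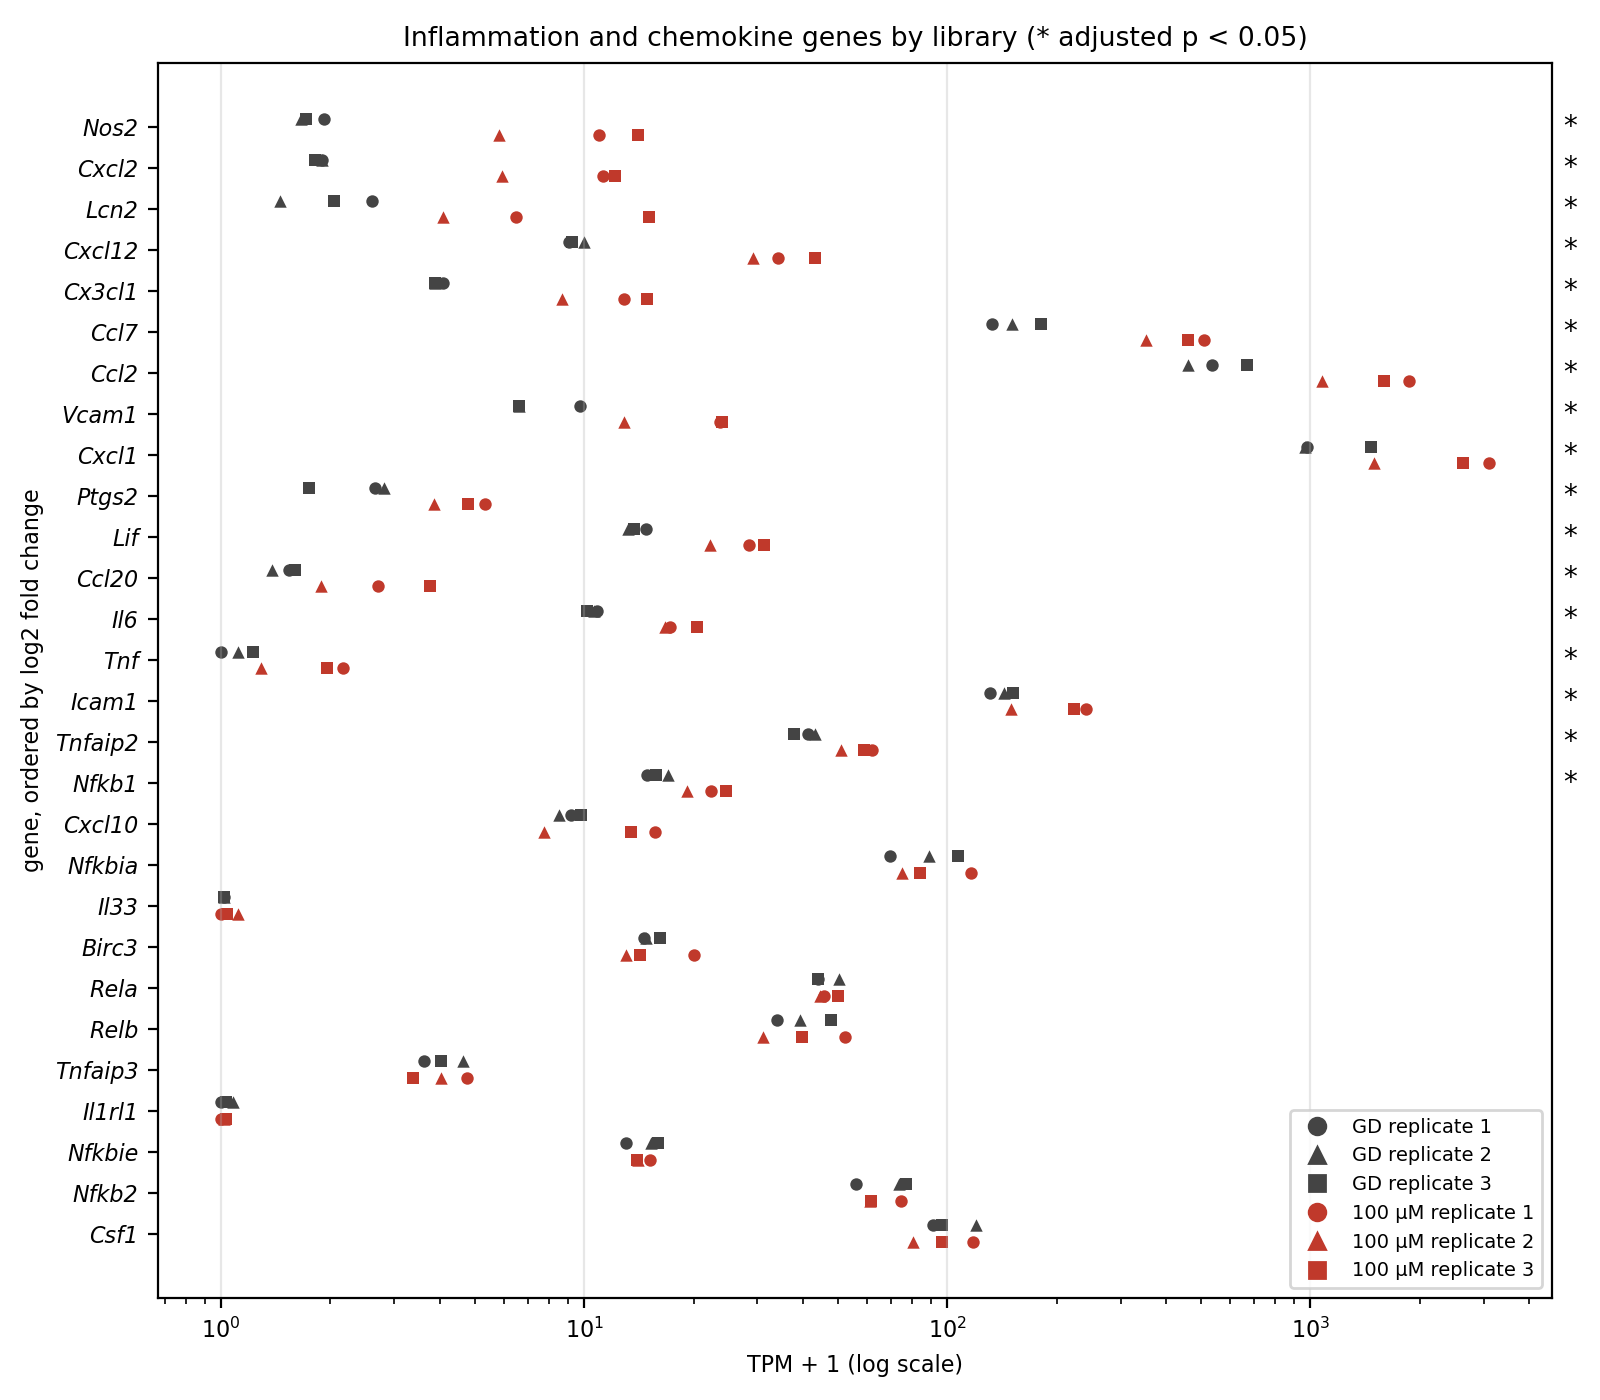
TPM + 1 (log scale) of the 28 tested inflammation and chemokine genes in the 3 GD libraries (dark) and the 3 libraries at 100 µM (red), with the marker shape giving the replicate and a star an adjusted p under 0.05. In each of the 17 starred genes the red triangle, replicate 2, is the treated library closest to the GD libraries.

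The promoters of Cxcl1, Cxcl2, Vcam1 and Icam1 are shown because these called genes carry matches to the NF-kappaB type motif GGNNTTTCC, searched on both strands after the data were seen. Each run holds 300 bases, 250 before and 50 after the gene's start, from RefSeq (GRCr8), at chr14:17479272-17479571 on the minus strand for Cxcl1, chr14:17467206-17467505 on the minus strand for Cxcl2, chr2:206742734-206743033 on the minus strand for Vcam1 and chr8:27829595-27829894 on the plus strand for Icam1. Capitals mark the matches, 2 in each.
Cxcl1: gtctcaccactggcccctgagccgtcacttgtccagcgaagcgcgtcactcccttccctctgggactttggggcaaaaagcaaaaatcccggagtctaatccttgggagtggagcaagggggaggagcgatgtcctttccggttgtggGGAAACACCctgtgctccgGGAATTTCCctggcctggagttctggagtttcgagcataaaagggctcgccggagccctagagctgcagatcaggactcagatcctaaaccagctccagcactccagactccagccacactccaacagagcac
Cxcl2: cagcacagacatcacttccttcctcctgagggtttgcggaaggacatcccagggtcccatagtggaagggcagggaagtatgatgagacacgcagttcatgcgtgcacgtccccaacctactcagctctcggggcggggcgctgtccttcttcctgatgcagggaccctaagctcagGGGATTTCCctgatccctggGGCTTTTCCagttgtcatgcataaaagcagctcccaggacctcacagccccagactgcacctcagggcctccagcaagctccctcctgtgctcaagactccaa
Vcam1: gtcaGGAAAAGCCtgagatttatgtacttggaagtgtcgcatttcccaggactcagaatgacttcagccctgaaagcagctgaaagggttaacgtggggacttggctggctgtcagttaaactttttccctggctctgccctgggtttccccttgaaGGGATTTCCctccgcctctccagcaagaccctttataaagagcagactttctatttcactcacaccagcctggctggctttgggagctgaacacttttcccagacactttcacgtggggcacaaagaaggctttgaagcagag
Icam1: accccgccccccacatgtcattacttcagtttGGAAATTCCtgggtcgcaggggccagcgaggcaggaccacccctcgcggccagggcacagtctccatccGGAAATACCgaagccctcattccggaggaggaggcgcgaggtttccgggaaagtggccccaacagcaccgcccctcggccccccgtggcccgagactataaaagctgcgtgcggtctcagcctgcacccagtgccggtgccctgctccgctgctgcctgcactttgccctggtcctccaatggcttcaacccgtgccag
Of 22 promoters of the list that the RefSeq table held, 11 had a match, among them those of the 7 called genes Ccl20, Cxcl1, Cxcl2, Icam1, Il6, Nfkb1 and Vcam1. Of the 8684 promoters of tested genes 6.33% had one, with 7.62% among the 617 of higher genes and 3.83% among the 522 of lower genes. For the stricter form GGACTTTCC the shares were 0.392%, 0.810% and 0.383%. Of the 22 promoters of the list 3 held the stricter form, and no called gene was among these. The other motifs searched on both strands were TGATGNAAT (ATF4 and CHOP type), CACGTG (E-box, bound by the TFEB family among others), TGACNNNGC (antioxidant element type) and TGACGTGG (XBP1 type). TGACNNNGC was in 15.0% of all, 16.4% of higher and 14.9% of lower promoters, and CACGTG in 9.72%, 9.40% and 10.7%. TGATGNAAT was in 0.495%, 0.486% and 0.383%, and TGACGTGG in 0.967%, 0.648% and 1.53%. A match describes letters in this window and does not show binding.

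Interferon-stimulated genes were in part higher. Of 24 tested, 6 rose and 1 fell (median log2 change 0.28). Psmb10, a catalytic subunit of the immunoproteasome, had 42.5, 32.3 and 49.0 TPM in GD and 142, 64.8 and 138 TPM at 100 µM (1.39, SE 0.25, adjusted p = 0.00368). Psmb9, another subunit of that proteasome, rose by 0.92, Ifi35 by 0.80 and the transcription factor gene Irf7 by 0.62, each with groups that did not overlap. Isg15 (0.92), a ubiquitin-like protein gene, and Gbp2 (0.70), a guanylate-binding protein gene, passed with adjusted p = 0.0429 and 0.0497, and Oasl (-0.65) fell. These last 3 missed the threshold without 100 µM replicate 1 or 3, among others, with adjusted p up to 0.177 for Gbp2.

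Nuclear-encoded subunits of the respiratory chain were higher by small amounts in 21 of 43 cases. Of the 43 tested 21 rose and 0 fell (median log2 change 0.21), and the 21 changes lay between 0.19 and 0.43. Ndufb8, a subunit of complex I, had 371, 385 and 393 TPM in GD and 473, 480 and 489 TPM at 100 µM (0.33, SE 0.05, adjusted p = 0.000948). Cyc1, cytochrome c1 of complex III, had 94.0, 100.0 and 91.3 TPM in GD and 121, 127 and 128 TPM at 100 µM (0.40, SE 0.06, adjusted p = 0.00108). Atp5o, of the ATP synthase, had 380, 364 and 385 TPM in GD and 479, 497 and 462 TPM at 100 µM (0.35, SE 0.05, adjusted p = 0.00104). In these 3 genes the groups were well apart and no single library stood out. The highest of the 21 changes were those of Ndufa2 (0.43) and Ndufa12 (0.39) of complex I and Cyc1, and Cox6c (0.37) of complex IV came next. After median-of-ratios scaling 13 of the 43 were called higher and 0 lower, and Cox7b, Cox8a, Ndufa6, Ndufa8 and Ndufb5 were among those that then missed the threshold.

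Other routes of energy metabolism had fewer calls than the respiratory chain. In the citric acid cycle list 3 of 22 rose and 1 fell (median log2 change -0.02). Dld (0.41), the dihydrolipoamide dehydrogenase shared by mitochondrial dehydrogenase complexes, Sdhb (0.29), which is also part of complex II, and Mdh2 (0.23) rose, and Cs, citrate synthase at the entry of the cycle, fell by 0.32. Of 23 tested genes of fatty acid oxidation and PPAR targets 1 rose and 5 fell (median log2 change -0.12). Acadl, the long-chain acyl-CoA dehydrogenase gene, had 110, 119 and 98.1 TPM in GD and 60.5, 58.5 and 60.2 TPM at 100 µM (-0.85, SE 0.07, adjusted p = 3.77e-05). Cpt1a, which admits fatty acids to mitochondria, had 12.5, 13.1 and 10.3 TPM in GD and 5.49, 6.32 and 7.26 TPM at 100 µM (-0.81, SE 0.12, adjusted p = 0.00125). Both genes were lower in every treated library than in any GD library, whereas Acadvl, the very long-chain enzyme, went the other way from 2.25, 2.09 and 1.68 TPM to 4.82, 4.62 and 3.66 TPM (0.83, SE 0.12, adjusted p = 0.000958). Without GD replicate 3, 9 of the 23 fell and 1 rose. Of 23 glycolysis and glucose uptake genes 4 fell by small amounts and 0 rose: Gpi (-0.28), Gapdh (-0.19), Aldoa (-0.23) and Pfkp (-0.36). Gapdh and Aldoa were not called after median-of-ratios scaling, and Aldoa, Gpi and Pfkp missed the threshold without 100 µM replicate 1, Aldoa and Pfkp also without other libraries.

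Sterol supply and sugar nucleotide genes were higher in part. Of 23 tested cholesterol synthesis and uptake genes 7 rose and 1 fell (median log2 change 0.27). Sqle, squalene epoxidase, had 40.2, 40.5 and 28.5 TPM in GD and 50.3, 58.1 and 54.1 TPM at 100 µM (0.58, SE 0.12, adjusted p = 0.00697). GD replicate 3 was the lowest library, and the groups did not overlap. Pmvk (0.50), Acat2 (0.55), Hsd17b7 (0.40) and Fdps (0.27), further enzymes of the route, rose too, while Insig1, which restrains the sterol regulators, fell from 84.1, 85.7 and 70.3 TPM to 57.4, 61.3 and 58.7 TPM (-0.43). Without 100 µM replicate 2 the list had 4 higher and 1 lower. In the hexosamine and N-glycan list 3 of 12 rose and 0 fell: Pgm3 (0.78) and Nagk (0.44), enzymes on the way to UDP-N-acetylglucosamine, and Gmppb (0.61), which makes GDP-mannose. Of 13 fatty acid synthesis genes Fasn, fatty acid synthase, was called (0.48), but 5 of the 6 fits that left out 1 library did not call it (adjusted p up to 0.148).

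A few growth-linked and contractile genes that stood far lower in GD than in control were higher at 100 µM. H19, an imprinted noncoding RNA of the embryo and of regenerating muscle, had 87.5, 107 and 86.2 TPM in GD and 283, 415 and 338 TPM at 100 µM (1.86, SE 0.14, adjusted p = 2.29e-05), beside 4289 to 4599 TPM in control. Cxcl12, a chemokine gene of stromal cells, had 8.10, 9.0 and 8.23 TPM in GD and 33.3, 28.2 and 42.2 TPM at 100 µM (1.90, SE 0.12, adjusted p = 8.28e-06), beside 531 to 550 TPM in control. Acta2, smooth-muscle actin, had 155, 156 and 165 TPM in GD and 310, 306 and 343 TPM at 100 µM (1.01, SE 0.08, adjusted p = 2.29e-05), beside 5758 to 6072 TPM in control. All 3 genes kept their groups far apart and stayed well below control. Of 27 tested contractile, YAP and SRF target genes 4 rose and 0 fell (median log2 change 0.23): Acta2, Amotl2 (0.84) and Ctgf (0.88), targets of the growth regulator YAP, and the tropomyosin gene Tpm4 (0.36). Ctgf depended on single libraries, with an adjusted p of up to 0.0645 when 1 was left out. Of 36 extracellular matrix genes 3 rose, Postn (0.67), Tnc (0.49) and Timp1 (0.30). Plod2, a collagen-modifying enzyme gene, fell (-0.50), and the median was 0.13. The shares, 8.33% higher and 2.78% lower, were near or below the 7.51% and 5.46% over all tested genes. Tnc was low, with 0.12 to 0.23 TPM in GD and 0.45 to 0.88 TPM at 100 µM, beside 4.88 to 5.85 TPM in control. All 4 called matrix genes missed the threshold in fits without 1 library. The matrix list had 2 higher and 6 lower genes without GD replicate 3 and 6 of each after median-of-ratios scaling.

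Of 34 tested antioxidant genes of the NRF2 type, 11 fell and 3 rose (median log2 change -0.29). Prdx6, a peroxiredoxin that reduces oxidised phospholipids, had 339, 338 and 314 TPM in GD and 199, 199 and 205 TPM at 100 µM (-0.71, SE 0.06, adjusted p = 3.55e-05). Tkt, transketolase of the pentose phosphate pathway, had 309, 308 and 318 TPM in GD and 187, 212 and 165 TPM at 100 µM (-0.74, SE 0.08, adjusted p = 0.000178). Osgin1, an oxidative stress-induced growth inhibitor, had 17.5, 21.3 and 16.5 TPM in GD and 6.72, 9.44 and 6.02 TPM at 100 µM (-1.22, SE 0.16, adjusted p = 0.00057). None of these groups overlapped. Nqo1, the quinone reductase often used as a readout of NRF2, had 409, 391 and 314 TPM in GD and 205, 300 and 161 TPM at 100 µM (-0.78, SE 0.18, adjusted p = 0.0134), with an adjusted p of 0.0551 without GD replicate 1. The glutathione and thioredoxin genes Gclc (-0.54), Gsr (-0.48), Gstm1 (-0.55) and Txnrd1 (-0.55), the pentose phosphate genes Pgd (-0.39) and Taldo1 (-0.32) and catalase, Cat (-0.61), made up the rest of the 11. Gclc missed the threshold in 4 of the 6 limma fits without 1 library (adjusted p up to 0.0919) and Cat in 3 (up to 0.0696). GD replicate 3 was the GD library nearest to the treated ones in 10 of the 11 lower members. Without that library 19 of the 34 were lower and 3 higher.

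The 3 antioxidant members that rose were Sod2, Gpx1 and Gpx4. Sod2, the mitochondrial superoxide dismutase gene and also a known NF-kappaB target, had 106, 85.7 and 121 TPM in GD and 317, 150 and 376 TPM at 100 µM (1.33, SE 0.26, adjusted p = 0.00571). Replicate 2 was again the lowest treated library, above all GD libraries. Gpx1, glutathione peroxidase 1, rose by 0.47 and Gpx4, which reduces lipid peroxides, by 0.20; the latter was not called after median-of-ratios scaling (adjusted p = 0.284). Among members that were not called, Hmox1, heme oxygenase 1, had 471, 486 and 405 TPM in GD and 305, 369 and 431 TPM at 100 µM (-0.31, adjusted p = 0.135), and Nfe2l2, the gene of NRF2 itself, had a log2 fold change of -0.05 (adjusted p = 0.739). Prdx5, a mitochondrial peroxiredoxin named for its large difference in TPM, rose from 2757, 2815 and 2897 TPM to 3967, 3700 and 4575 TPM (0.53, SE 0.12, adjusted p = 0.0104).

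The lists of iron handling and of drug metabolism had calls in 1 direction. Of 14 tested iron handling genes 4 fell and 0 rose (median log2 change -0.14). Tfrc, the transferrin receptor, had 31.7, 34.1 and 26.3 TPM in GD and 19.5, 18.3 and 17.7 TPM at 100 µM (-0.69, SE 0.11, adjusted p = 0.00215), and the ferrireductase gene Steap3 (-0.66) and the iron chaperone genes Pcbp1 (-0.28) and Pcbp2 (-0.25) fell as well. Ferritin genes together held 4.44% ± 0.31 of TPM at 100 µM and 4.84% ± 0.38 in GD (SD, n = 3 each; two-sided exact permutation test, p = 0.3). Of 10 xenobiotic response and drug efflux genes 2 fell, the glucuronosyltransferase gene Ugt1a6 (-0.82) and the efflux pump gene Abcc5 (-0.68). Gsta2, a glutathione transferase of the lowest 10 genes, went from 7.72, 7.84 and 6.26 TPM to 3.25, 2.60 and 1.74 TPM (-1.25, SE 0.20, adjusted p = 0.00193).

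Lysosome genes were lower in 12 of 42 cases and higher in 1, with a median of -0.15. Lamp1, a major membrane protein of the lysosome, had 1591, 1631 and 1518 TPM in GD and 1174, 1226 and 1241 TPM at 100 µM (-0.38, SE 0.05, adjusted p = 0.000596). Hexa, a subunit of beta-hexosaminidase, had 535, 548 and 574 TPM in GD and 389, 428 and 368 TPM at 100 µM (-0.48, SE 0.07, adjusted p = 0.00134). Rragd, a Rag GTPase that ties lysosomes to mTORC1, had 14.5, 13.5 and 11.5 TPM in GD and 6.93, 8.74 and 6.54 TPM at 100 µM (-0.76, SE 0.12, adjusted p = 0.00173). In each the groups did not overlap. Tfeb, the regulator of lysosome genes, fell from 12.1, 13.4 and 13.4 TPM to 9.36, 9.31 and 9.0 TPM (-0.45, SE 0.09, adjusted p = 0.00697). The cathepsins Ctsb (-0.32) and Ctsd (-0.31), the hydrolases Gaa and Gla, the cholesterol carrier Npc2 and the proton pump subunits Atp6v1c1 and Atp6v1h were among the other lower members, and Neu1, a sialidase, was higher (0.33). Atp6v1c1 and Npc2 missed the threshold in 5 of 6 fits that left out 1 library, and without GD replicate 3, 18 of the 42 were lower and 0 higher.

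In the autophagy list 5 of 42 fell and 0 rose (median log2 change -0.06). Gabarapl1, an ATG8 family gene whose product builds autophagosomes, had 175, 177 and 162 TPM in GD and 99.5, 99.2 and 98.5 TPM at 100 µM (-0.78, SE 0.06, adjusted p = 3.11e-05), and its treated libraries lay close together. Pink1, a kinase that marks damaged mitochondria, fell from 46.5, 50.5 and 49.2 TPM to 35.8, 35.3 and 32.6 TPM (-0.48, SE 0.07, adjusted p = 0.00133). Bnip3 (-0.36), Uvrag (-0.37) and Tecpr1 (-0.41) passed as well, but none of these 3 in most fits that left out 1 library (adjusted p up to 0.158 for Bnip3). Without GD replicate 3 the count was 11 lower and 0 higher. The most used markers were not called: Map1lc3b (LC3B) had 457, 460 and 423 TPM in GD and 391, 441 and 427 TPM at 100 µM (-0.09, adjusted p = 0.359), the cargo receptor gene Sqstm1 had -0.19 (adjusted p = 0.111) and Becn1 (beclin 1) had -0.01 (adjusted p = 0.963).

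Cytosolic heat shock genes, whose products fold proteins under stress, fell in 7 of 21 cases and rose in 1, with a median of -0.30. Hsp90ab1, a constitutive HSP90, had 1569, 1599 and 1495 TPM in GD and 1065, 1055 and 1095 TPM at 100 µM (-0.53, SE 0.05, adjusted p = 8.41e-05). Bag3, a co-chaperone of muscle, had 79.1, 88.6 and 81.1 TPM in GD and 42.8, 52.9 and 56.2 TPM at 100 µM (-0.71, SE 0.09, adjusted p = 0.000567). Dnajb1 had 163, 164 and 156 TPM in GD and 120, 121 and 117 TPM at 100 µM (-0.43, SE 0.05, adjusted p = 0.000244). These groups stood well apart. Hspa8 (-0.35), Hspb1 (-0.43), Cryab (-0.60) and Dnaja1 (-0.35) also fell and Dnajb5 (0.39) rose. Without GD replicate 3 the list had 13 lower and 0 higher genes.

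Endoplasmic reticulum (ER) chaperone and degradation genes were lower in part. Of 33 tested, 6 fell and 1 rose (median log2 change -0.14). Calr, calreticulin, a calcium-binding chaperone, was named for its large difference in TPM, with 4558, 4848 and 3925 TPM in GD and 3034, 3299 and 3175 TPM at 100 µM (-0.48, SE 0.13, adjusted p = 0.0313). Dnajc3, a co-chaperone of BiP, fell from 164, 165 and 134 TPM to 103, 101 and 113 TPM (-0.53, SE 0.12, adjusted p = 0.0108), and Sec61b, a subunit of the ER import channel, rose from 489, 484 and 486 TPM to 587, 625 and 577 TPM (0.29, SE 0.05, adjusted p = 0.00174). P4hb (-0.30), Pdia4 (-0.41), Os9 (-0.28) and Dnajb11 (-0.34) were the others called. GD replicate 3 was the GD library nearest to the treated ones in all 6 lower genes. The lower count was 13 without it and 11 after median-of-ratios scaling, while Calr, Pdia4, Os9 and Dnajb11 missed the threshold without GD replicate 1 or 2 (adjusted p up to 0.152). Hspa5, the gene of the main ER chaperone BiP, had 2037, 2199 and 1509 TPM in GD and 1724, 1849 and 1913 TPM at 100 µM (-0.05, adjusted p = 0.906).

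The integrated stress response list split. Of 34 tested, 6 rose and 2 fell (median log2 change 0.00). Psph, the last enzyme of serine synthesis, had 91.0, 84.5 and 87.2 TPM in GD and 142, 126 and 149 TPM at 100 µM (0.66, SE 0.11, adjusted p = 0.00286). Cebpb, a transcription factor gene that also serves inflammation, had 38.2, 39.3 and 31.1 TPM in GD and 62.0, 56.9 and 57.6 TPM at 100 µM (0.69, SE 0.11, adjusted p = 0.0015). Chac1 (0.58), Asns (0.41), Pck2 (0.44) and Ddit4 (0.33) rose too, though Ddit4 missed the threshold in 5 of the 6 fits that left out 1 library (adjusted p up to 0.164). Atf3, a stress transcription factor gene, fell from 60.3, 64.7 and 62.5 TPM to 33.4, 34.4 and 35.2 TPM (-0.84, SE 0.09, adjusted p = 0.000207), and the stress cytokine gene Gdf15 from 8.41, 6.21 and 9.69 TPM to 5.09, 3.04 and 2.85 TPM (-0.98, SE 0.21, adjusted p = 0.00891). Ddit3, which encodes CHOP, was not called, with 1344, 1348 and 1119 TPM in GD and 1093, 1262 and 1237 TPM at 100 µM (-0.08, adjusted p = 0.685). Of 19 amino acid transporter genes 2 fell, Slc6a9 (-0.77), a glycine transporter, and Slc3a2 (-0.49), the partner chain of several transporters.

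Immediate-early genes, the first to answer growth factors and stress, had 4 of 22 higher and 5 lower. Dusp6, a phosphatase that damps ERK signalling, had 2.36, 2.46 and 1.57 TPM in GD and 6.25, 5.55 and 7.12 TPM at 100 µM (1.23, SE 0.13, adjusted p = 0.000201), and Klf2, a Krüppel-like factor gene, 1.55, 1.97 and 2.02 TPM and then 3.78, 6.26 and 6.55 TPM (1.17, SE 0.15, adjusted p = 0.000602). Dusp1, a phosphatase of stress kinases, had 28.2, 28.1 and 26.7 TPM in GD and 11.3, 15.0 and 13.0 TPM at 100 µM (-1.03, SE 0.10, adjusted p = 0.00013), and the nuclear receptor gene Nr4a1 9.24, 11.0 and 6.58 TPM and then 2.40, 4.51 and 2.03 TPM (-1.35, SE 0.22, adjusted p = 0.00222). None of the 4 overlapped between groups. Egr1 (0.57) and Ier2 (0.53) rose, and Maff (-0.59), Klf6 (-0.42) and Zfp36 (-0.39) fell. Egr1 was low, with 0.59 to 0.99 TPM in GD and 1.26 to 1.88 TPM at 100 µM. Both Egr1 and Zfp36 missed the threshold in 3 of the 6 limma fits that left out 1 library (adjusted p up to 0.129 and 0.113).

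Calls in the cell death, p53 and hypoxia lists are to be read against 7.51% higher and 5.46% lower over all tested genes. Bax, which permeabilises mitochondria in apoptosis, rose from 179, 188 and 186 TPM to 260, 244 and 280 TPM (0.50, SE 0.06, adjusted p = 0.000361), and the caspase-activating Diablo (0.22) rose and the inhibitor of apoptosis Birc2 (-0.36) fell. These were the calls among 28 apoptosis and necroptosis genes, and the last 2 depended on single libraries (adjusted p up to 0.133). Of 22 p53 targets Bax rose and Gadd45a (-0.37), Ddb2 (-0.56) and Xpc (-0.43) fell, each of these last 3 missing the threshold in at least 2 fits without 1 library. Of 18 hypoxia targets Ddit4 rose and Mxi1 (-0.63), Kdm3a (-0.42) and Bnip3 fell; Mxi1 was called in all 6 fits without 1 library, while Ddit4 and Kdm3a missed the threshold in 5 and Bnip3 in 4. Of 17 FOXO and atrophy genes Trim63, a muscle ubiquitin ligase (-0.39), and Foxo4 (-0.34) fell, but missed the threshold in 3 and 5 of these fits. Of 17 AMPK and mitochondrial biogenesis genes Prkag1 (0.25) and Camkk2 (0.34), both of the AMPK route, rose, though neither without 100 µM replicate 2.

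The DNA replication and mitosis lists gave no calls. Of 40 DNA replication and 35 mitosis genes 0 passed in limma, with medians of -0.04 and 0.06, and 9 and 2 had an unadjusted p under 0.05; the members with the smallest p were Orc1 (1.27, adjusted p = 0.0542) and Cdc25b (-0.40, adjusted p = 0.0979). Without GD replicate 3 the replication list had 1 higher and 6 lower genes. Of 88 ribosomal protein genes 1 rose, Rpl39l (0.40, adjusted p = 0.0422), which resembles Rpl39 closely enough that reads may be shared; without GD replicate 3, 10 rose and 0 fell. Of 37 ribosome biogenesis genes 2 rose (Nop10 and Bop1) and 2 fell (Nob1 and Rrn3), but Bop1 was called in 0 of the 6 fits that left out 1 library (adjusted p 0.0637 to 0.153), each of the other 3 missed the threshold in at least 1, and after median-of-ratios scaling 0 rose and 3 fell. Of 5 glucose-sensor targets 0 passed, with 1 at an unadjusted p under 0.05. Txnip, a glucose-induced gene, was at 0.23, 0.02 and 0.22 TPM in GD and 0.18, 0.09 and 0.13 TPM at 100 µM (-0.02, adjusted p = 0.923), against 56.3 to 62.1 TPM in control.

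The gene of the drug's known target was low in GD and at 100 µM, beside 6.76 to 7.88 TPM in control. Slc5a2, which encodes SGLT2, had 1.23, 1.04 and 0.79 TPM in GD and 0.70, 0.69 and 0.50 TPM at 100 µM; the groups did not overlap, but the change missed the threshold (-0.31, SE 0.16, adjusted p = 0.247). Slc5a1, which encodes SGLT1, did not reach the level needed for a test, and neither did the mitochondrial coactivator gene Ppargc1a. Of 19 tested sodium and glucose cotransport genes 3 fell and 0 rose (median log2 change -0.08). Among them, Slc5a6, a sodium-dependent vitamin transporter, fell by 0.38 and Fxyd5, a sodium pump regulator, by 0.38.

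**Figure D3:**
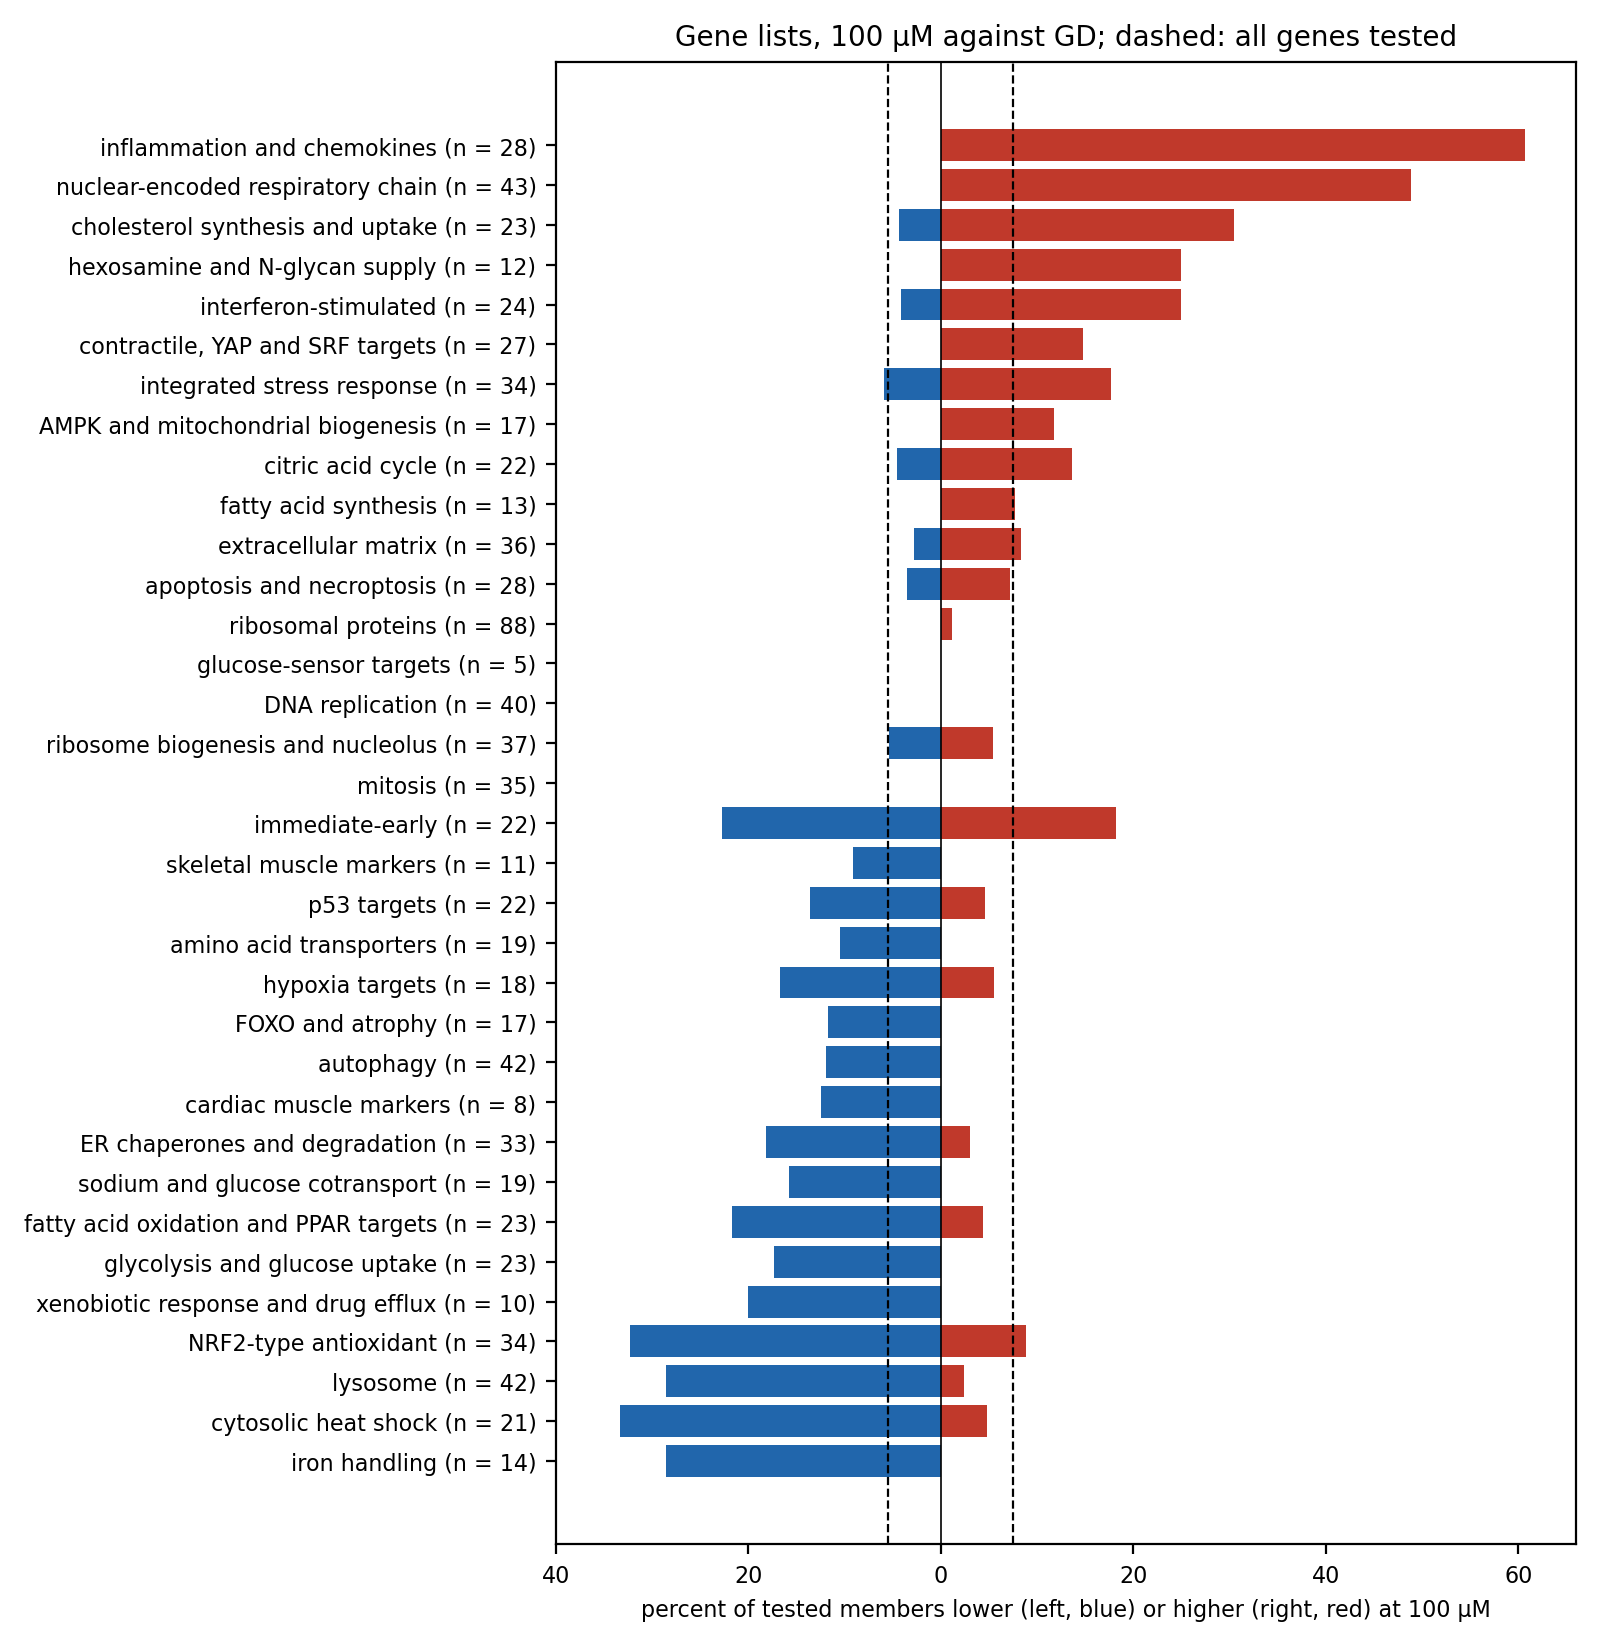
Percent of the tested members of each gene list that were called lower (left, blue) or higher (right, red) at 100 µM against GD, with the number tested in parentheses and dashed lines at the shares over all genes, 5.46% and 7.51%. Inflammation and chemokine genes (17 of 28) and respiratory chain genes (21 of 43) reach farthest to the right, and cytosolic heat shock (7 of 21), NRF2-type (11 of 34), lysosome (12 of 42) and iron genes (4 of 14) farthest to the left.

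Among the 10 lowest fold changes were genes of no common list. Mlana, a melanosome protein gene, had 16.6, 20.2 and 14.0 TPM in GD and 3.71, 10.1 and 2.39 TPM at 100 µM (-1.66, SE 0.38, adjusted p = 0.0123), and its adjusted p was 0.0521 without 100 µM replicate 3. Armc8, part of a ubiquitin ligase complex, had 109, 104 and 152 TPM in GD and 43.9, 36.8 and 38.1 TPM at 100 µM (-1.58, SE 0.16, adjusted p = 0.000162). Fgf7, a growth factor of epithelia made by stromal cells, had 57.1, 57.9 and 39.4 TPM in GD and 17.8, 26.6 and 18.8 TPM at 100 µM (-1.25, SE 0.18, adjusted p = 0.000948). All 3 had groups that did not overlap. Ampd3 (AMP deaminase, -1.40), Serpinb1a (a protease inhibitor, -1.34), Itgax (an integrin chain, -1.25) and Incenp (of the chromosomal passenger complex, -1.18) completed the set beside Nr4a1, Gsta2 and Osgin1. Incenp, which is not on the mitosis list, fell although 0 members of that list passed. Among high rises outside the lists, Mettl16, an RNA methyltransferase gene, had 1.35, 4.56 and 0.86 TPM in GD and 7.69, 8.96 and 8.85 TPM at 100 µM (1.71, SE 0.34, adjusted p = 0.00565). Of the most abundant genes, Tmsb10, a thymosin that binds actin, rose (0.35, SE 0.07, adjusted p = 0.00771) and Eef1a1, a translation elongation factor gene, fell (-0.21, SE 0.04, adjusted p = 0.00803); neither was called after median-of-ratios scaling.

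The 2 doses were compared directly, and 4159 genes (33.8%) differed between 200 and 100 µM, 3167 higher (25.7%) and 992 lower (8.06%) at 200 µM. Some genes that rose at 100 µM were higher still at 200 µM. Pla2g2a reached 176, 184 and 197 TPM (log2 fold change 4.15 between doses, SE 0.35, adjusted p = 3.65e-06), Cxcl12 233 to 286 TPM (2.89) and Egr1, an early growth response factor, 11.7 to 18.9 TPM from 1.26 to 1.88 TPM (2.63). Ctgf reached 90.6 to 135 TPM (2.51). In contrast, Csf2 was lower at 200 µM, with 2.96, 4.63 and 4.08 TPM (-1.35, adjusted p = 0.00198), as was Fez1, which rose at 100 µM from 7.66 to 8.13 TPM to 12.8 to 16.6 TPM and stood at 0.99 to 2.51 TPM at 200 µM (-2.62, adjusted p = 6.61e-07). Cxcl2 was not called between doses (-0.49, adjusted p = 0.113).

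The lists also differed between doses. Of 28 inflammation genes 22 were higher at 200 than at 100 µM and 0 lower (median 0.79, against 0.12 over all tested genes), and of 27 contractile and 36 matrix genes 22 and 27 were higher and 0 lower (medians 0.88 and 0.82). Of 33 ER genes 26 were lower and 0 higher (median -0.65): Calr stood at 565, 908 and 646 TPM at 200 µM (-2.19, adjusted p = 3.49e-07) and Ddit3 at 490, 668 and 501 TPM (-1.13, adjusted p = 9.42e-06). Some genes that fell at 100 µM were back up at 200 µM: Cpt1a had 16.6, 20.3 and 21.0 TPM (1.46, adjusted p = 2.81e-06) and Hsp90ab1 1476, 1359 and 1332 TPM (0.37, adjusted p = 0.000107). Other such genes were not called between doses, among them Prdx6 (-0.03, adjusted p = 0.706) and Gabarapl1 (-0.15, adjusted p = 0.0830).

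**Figure D4:**
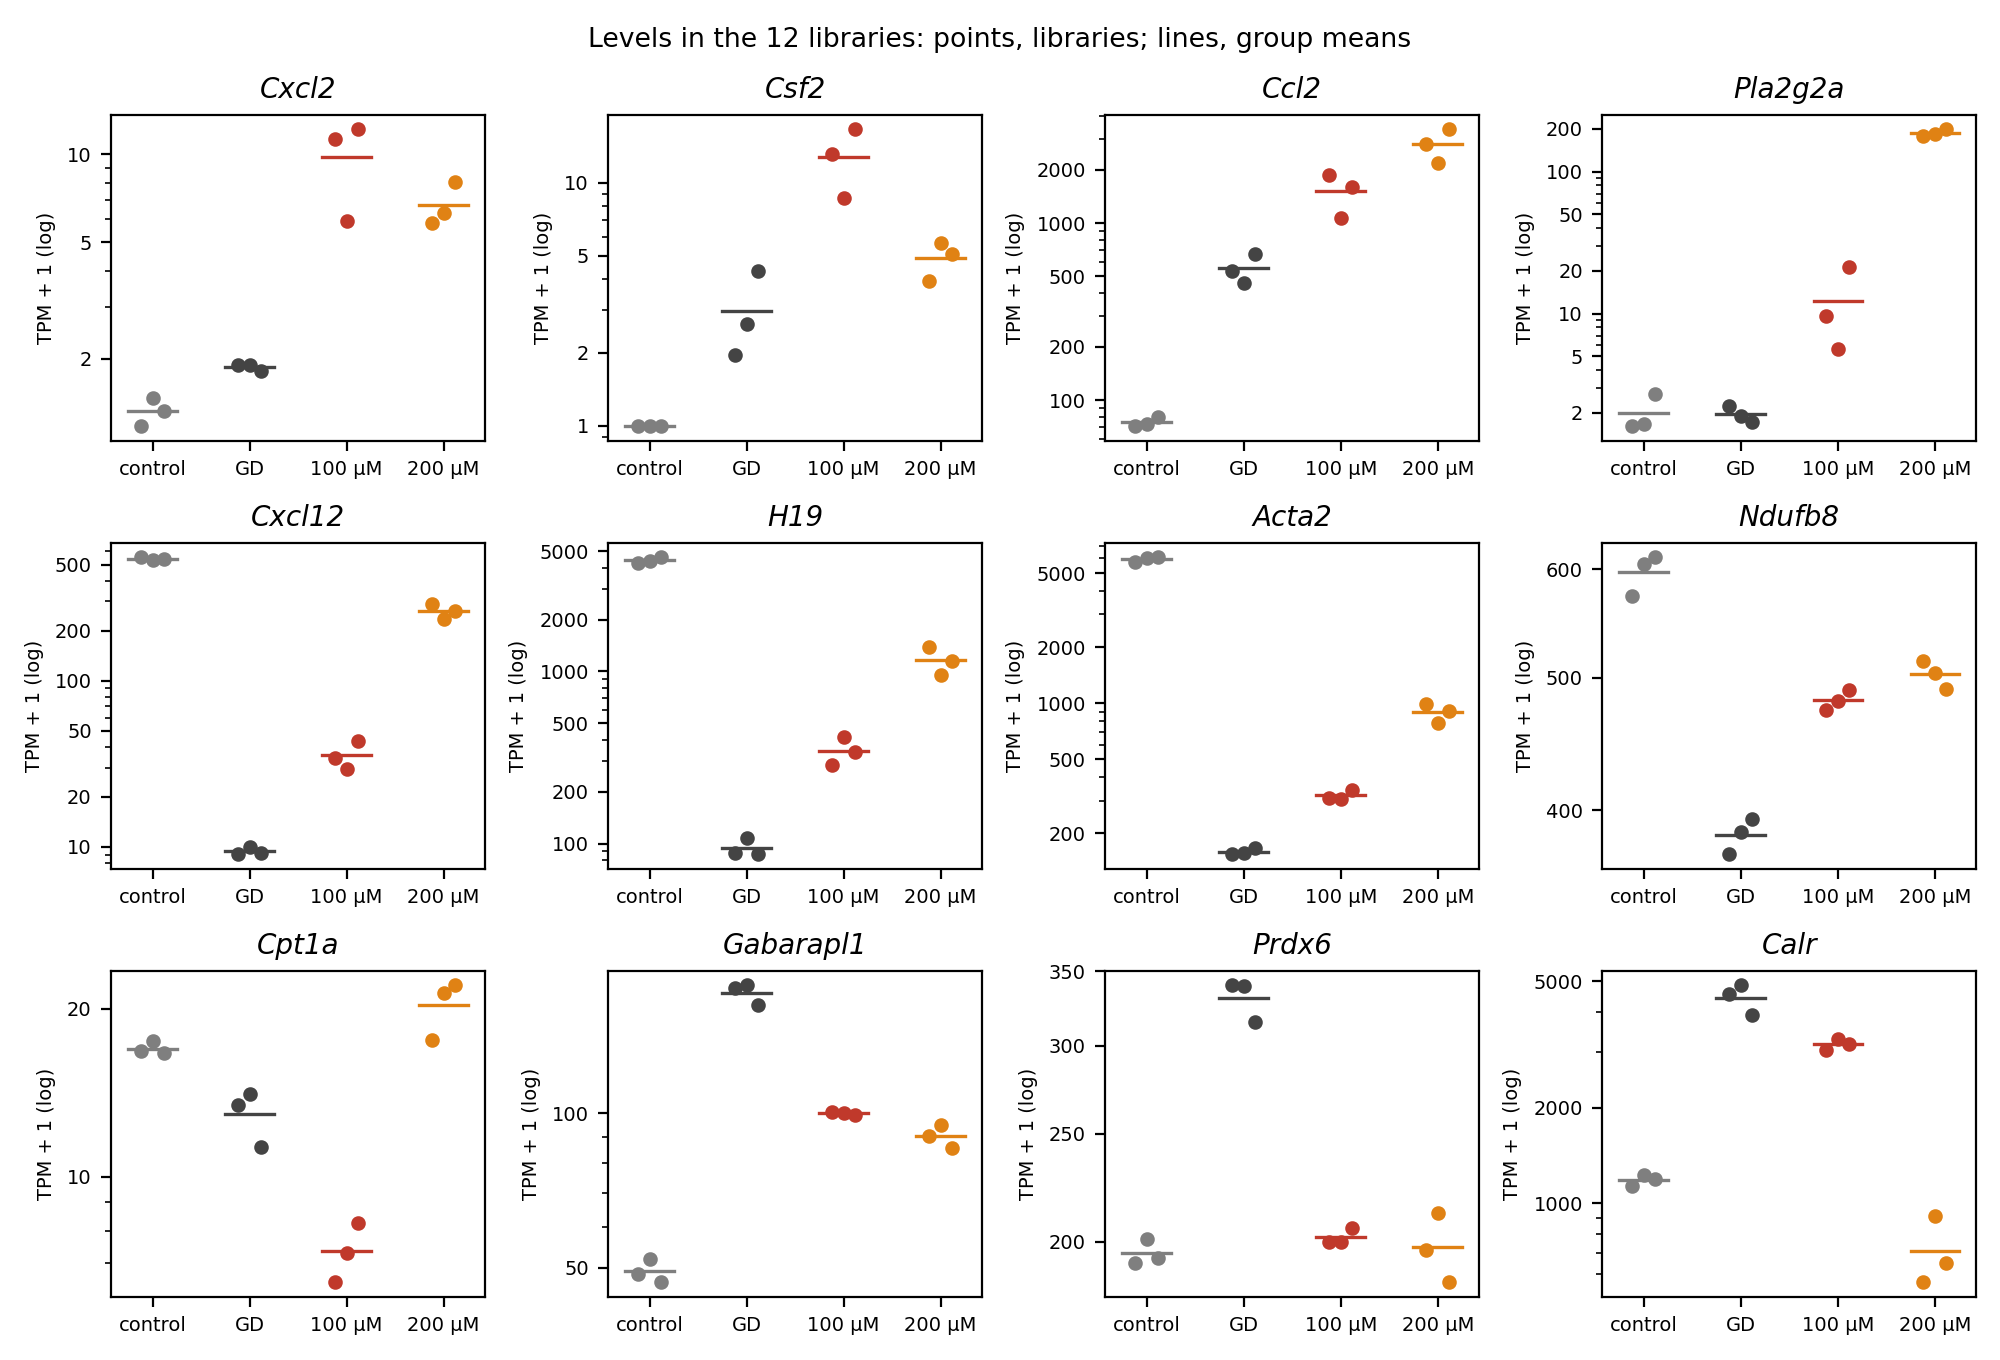
TPM + 1 (log scale, a separate range in each panel) of 12 genes in the 4 groups, with points for libraries and lines for group means. Ccl2, Pla2g2a, Cxcl12, H19 and Acta2 step up from GD to 100 µM and 200 µM, Csf2 peaks at 100 µM, Cpt1a is lowest at 100 µM, and Gabarapl1 and Prdx6 lie at like levels at both doses.

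**Figure D5:**
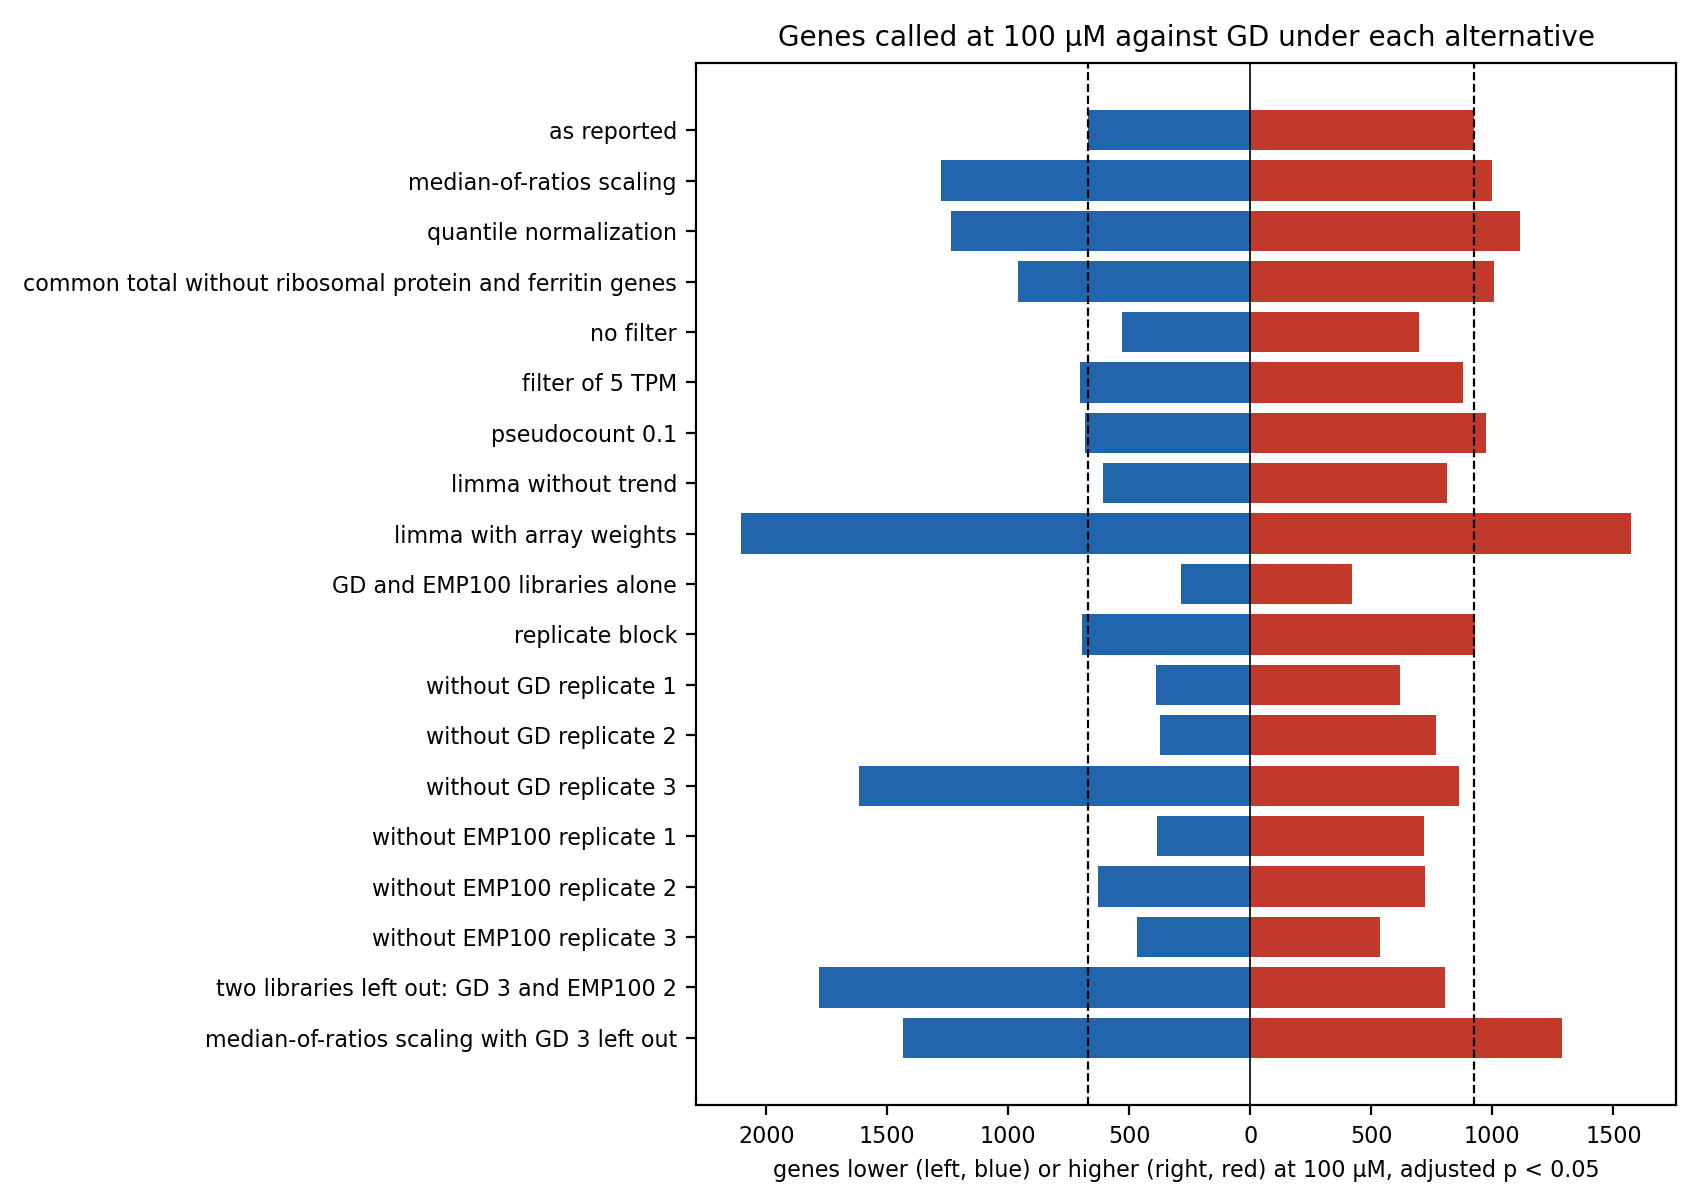
Number of genes lower (left, blue) and higher (right, red) at 100 µM against GD at an adjusted p under 0.05 in each fit, with dashed lines at the reported 672 and 925. The lower count is 1615 without GD replicate 3 and 371 without GD replicate 2, while the higher count ranges from 422 with the 6 libraries alone to 1575 with array weights.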

How the data were processed

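RNA-seq of total RNA (TRIzol, DNase, Illumina library preparation, per the labels' protocols) from 12 libraries of H9c2(2-1) cells was analysed. The authors deposited 1 column of TPM per library. No header or label names that unit: column totals of 946400.5 to 981389.8 and non-integer values led to it. HISAT2 and StringTie are named in the submitters' processing notes. Versions, genome build, annotation and strandedness were not given in the sources used here, so reads of overlapping or antisense genes cannot be told apart. TPM keep no read numbers, so depth is unknown and no counting intervals are given.

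Values were analysed as log2(TPM + 1), which understates changes of low genes, with limma-trend (limma 3.58.1, R 4.3.3), 1 mean per group, all 12 libraries in 1 fit and two-sided tests with Benjamini-Hochberg adjustment over 12314 genes. The filter was 1 TPM in 3 libraries. The fit was tested on simulated data. Of the table's loci 472 share a symbol with another and were kept apart. Promoters came from RefSeq (GRCr8), which held 8684 of the tested genes.

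Genes were named by rule: the 10 highest and 10 lowest fold changes among called genes with established symbols and groups that do not overlap, the 5 largest differences in TPM, up to 3 members of each list by smallest p, the 5 largest differences between doses, and a fixed set; some genes so chosen are not reported here. Other list members were picked as examples after their values were seen. The members and lists were chosen with earlier results of these data known.

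Alternatives were median-of-ratios scaling, quantile normalization, a common total without ribosomal protein and ferritin genes, other filters, a pseudocount of 0.1, limma without trend or with array weights, the 6 libraries alone, a replicate block, and each library left out. Leaving out GD replicate 3 together with 100 µM replicate 2, or with that scaling, was added after the data were seen.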

Additional observations from a re-analysis of the deposited data

How the results depend on the processing

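No alternative reversed the direction of any of the 118 genes named by rule that was called in that fit or as reported. Direction was not compared for genes called in neither. Of the 105 called, 67 were called in every fit that tested them. The higher and lower counts (925 and 672) became 1575 and 2104 with array weights, whose estimation stopped before its tolerance was met, and 422 and 285 with the 6 libraries alone. With 1 library left out the higher count ranged from 536, without 100 µM replicate 3, to 861. The lower count then ranged from 371, without GD replicate 2, to 1615, without GD replicate 3, and was 389 without GD replicate 1 and 384 without 100 µM replicate 1. The lower count was 1277 after median-of-ratios scaling, 1237 after quantile normalization, 1781 without GD replicate 3 and 100 µM replicate 2, and 1433 with that scaling and without GD replicate 3. The cause of these shifts was not tested. Of the 925 higher and 672 lower genes, 734 and 649 were also called after median-of-ratios scaling and 772 and 658 without GD replicate 3, with 0 called in the opposite direction. With 1 library left out, the difference in the ribosomal protein share (0.395 percentage points) lay between -0.535 and 1.23. The count between doses (4159) stayed within 3086 and 4577. No label says that replicate numbers pair the samples, and 3 libraries a group are too few to settle it. Deviations of libraries of the same number correlated at -0.06, 0.21 and 0.04, and those of different numbers at -0.22 to 0.22. With a replicate block 927 genes were higher and 697 lower, and 4301 differed between doses. Depth is unknown, and 3 libraries a group limit precision.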

Other observations

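Gene families were also read by shared symbol stem, chosen after the data were seen, over 126 stems with at least 10 tested members. Of 10 Srsf genes, which encode splicing factors of the SR family, 7 rose and 0 fell at 100 µM against GD, with a median log2 fold change of 0.44. Srsf3 had 33.0, 30.7 and 26.8 TPM in GD and 40.9, 42.7 and 39.4 TPM at 100 µM (0.43, SE 0.08, adjusted p = 0.00411). Of 10 Psmb genes, subunits of the proteasome core, 6 rose (median 0.29), the immunoproteasome genes Psmb9 and Psmb10 among them. Of 44 Mrpl genes, which encode proteins of the large mitochondrial ribosome subunit, 13 rose and 0 fell (median 0.11), and of 11 Ndufa genes 9 rose. Of 13 Myo genes, myosins other than those with the stems Myh and Myl, 3 fell and the median was -0.34.

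A pair of pigment cell genes stood out by name in a heart-derived line. Beside Mlana, Pmel, which encodes a melanosome matrix protein, had 5.76, 6.15 and 6.10 TPM in GD and 2.28, 2.98 and 2.79 TPM at 100 µM (-0.93, SE 0.11, adjusted p = 0.000375), with 0.89 to 0.93 TPM in control and 0.45 to 0.77 TPM at 200 µM. Mitf, the transcription factor gene of that lineage, was not called (-0.04, adjusted p = 0.89). Il18bp, whose product binds interleukin 18, rose from 0.02, 0.00 and 0.66 TPM to 2.48, 2.00 and 2.80 TPM (1.52, SE 0.20, adjusted p = 0.0006) and is in none of the lists.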
